A study of Mus musculus with 192 samples.

Results

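The central midline was compared with the ventral midline of a grid of voxels cut from mouse brain. A voxel is a small block of tissue, labelled with a letter for its row (A to G) and a number for its column (1 to 11). The central midline was taken as positions C5, C6 and C7, and the ventral midline as positions A5 to A7 and B5 to B7, by the row letter and column number in the sample titles. These gave 8 central and 17 ventral arrays, 25 of the 192 in the series, and the other 167 arrays are called the rest of the section. The animals were C57BL/6 males at postnatal day 56, with no treatment named, and the labels call the voxel RNA pooled, without the number of animals. Every array set the RNA of 1 voxel position against whole-brain RNA, the control, in the other dye. There were 3 independently harvested datasets, which are the replicates (n = 3). Voxel RNA carried Cy3 in datasets 1 and 3 and Cy5 in dataset 2. Dataset 1 had 2 central arrays (C5, C6) and 5 ventral arrays (no B5), while datasets 2 and 3 each had 3 central and 6 ventral arrays; the C7 and B5 positions of dataset 1 are not analysed here.

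The labels give no anatomical direction or region, so "central" and "ventral" are names for the grid positions. The 2 zones had been described as thalamus-like and hypothalamus-like. The thalamus relays sensory and motor signals to the cortex, and in the adult brain many of its neurons keep the transcription factor gene Tcf7l2, an effector of Wnt signalling, and Prkcd, which encodes protein kinase C delta. The hypothalamus below it controls feeding, temperature and hormone release through neuropeptides, and many imprinted genes, which are read from 1 parental copy, are active there. A voxel mixes neurons, glia and vessels, so fewer cells of a type and less RNA per cell cannot be told apart.

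Values are log2 ratios of voxel over whole brain, taken row by row relative to the median of all arrays, so a value of 0 is the middle of the section for that row and only differences between positions carry information. Which dye was the numerator is not stated. The labels call whole brain the control, so that a positive value means more RNA in the voxel is likely, and "higher" and "lower" are used in that sense. Missing and floor values took up 0.427% to 4.73% of each array. The spread of an array's values, as median absolute deviation, lay between 0.244 and 0.779, and among central arrays it was widest at C5 of dataset 3 (0.73). Over 7556 genes measured on every array, 20 of the 25 arrays correlated better with their own zone than with the other zone in the other datasets. This held for 5 of 8 central arrays and 15 of 17 ventral arrays, and for 0 of the 3 central arrays of dataset 3. The correlations themselves were weak. The median with the own zone was 0.126, -0.0514 and -0.11 for central arrays of datasets 1 to 3. For ventral arrays it was 0.108, 0.0908 and 0.0274. The best-matching position lay in the own zone for 10 of the 25 arrays and 1 of the 8 central arrays. The central minus ventral difference correlated across genes at 0.249 between datasets 1 and 2, at 0.0239 between datasets 1 and 3 and at -0.00684 between datasets 2 and 3 (15457 genes, which are not independent replicates and share the arrays of their dataset). The B6 array of dataset 1 stood apart from the other ventral arrays in several genes, and its values are given beside those genes.

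Between the zones 15457 genes or unnamed clones were tested, and none passed an adjusted p of 0.05 (limma, 1 difference of zone means per dataset, smallest adjusted p = 0.761, 0% called). At an unadjusted p under 0.05 there were 925 genes (5.98%, where 772.85 would be expected with no difference), 723 higher (4.68%) and 202 lower (1.31%) in the central midline. The largest difference of all genes tested was that of Prkcd, 2.44 ± 0.67 (SD, n = 3), which is 5.42-fold. Tcf7l2 stood 1.86 ± 0.44 above the ventral midline, Tnnt1 1.33 ± 0.06 and Ptpn3 1.43 ± 0.18. The imprinted gene Dlk1 stood at -1.52 ± 0.26, 2.86-fold lower, and Ndn at -1.01 ± 0.28. The 24 genes named by rule from this comparison had the same sign in 3 of 3 datasets, which the rule required, as did 31% of all genes tested (19% above 0 and 12% below 0). A fit of all 25 arrays with the dataset as a block passed 45 genes (0.291%), 34 higher and 11 lower, but it takes voxels of 1 dataset as independent, which they are not.

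The 300 bases around the start of Prkcd and Tnnt1 are shown because these 2 genes had every central array above every ventral array, and those of Cartpt and Peg3 because, of the 5 hypothalamus-list genes that rose in the ventral midline against the rest of the section, these held a match to a motif searched. The windows of the other 3, Ndn, Dlk1 and Gpx3, held 0 matches. The sequences run 5′ to 3′ from 250 bases before to 50 bases after the gene's first listed start, on the minus strand, from RefSeq (GRCm38.p6). Capitals mark matches to any of the 4 motifs searched on both strands: CTTTGA (the core of sites bound by TCF and LEF factors), TATAAA (a core promoter element), CACGTG (the E-box) and TGACGTCA (the response element for cyclic AMP).
Prkcd at chr14:30626159-30626458: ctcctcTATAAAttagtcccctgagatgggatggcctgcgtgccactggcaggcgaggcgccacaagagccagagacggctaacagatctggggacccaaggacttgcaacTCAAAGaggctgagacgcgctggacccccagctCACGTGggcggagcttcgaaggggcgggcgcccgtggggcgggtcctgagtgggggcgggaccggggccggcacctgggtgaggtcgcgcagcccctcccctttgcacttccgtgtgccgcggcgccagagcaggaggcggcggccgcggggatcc
Tnnt1 at chr7:4515926-4516225: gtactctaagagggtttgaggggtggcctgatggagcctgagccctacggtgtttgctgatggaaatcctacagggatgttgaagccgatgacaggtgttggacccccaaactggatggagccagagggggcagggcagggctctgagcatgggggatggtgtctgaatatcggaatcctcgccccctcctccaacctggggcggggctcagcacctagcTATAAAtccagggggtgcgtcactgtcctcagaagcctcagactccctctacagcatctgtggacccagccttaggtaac
Cartpt at chr13:99900634-99900933: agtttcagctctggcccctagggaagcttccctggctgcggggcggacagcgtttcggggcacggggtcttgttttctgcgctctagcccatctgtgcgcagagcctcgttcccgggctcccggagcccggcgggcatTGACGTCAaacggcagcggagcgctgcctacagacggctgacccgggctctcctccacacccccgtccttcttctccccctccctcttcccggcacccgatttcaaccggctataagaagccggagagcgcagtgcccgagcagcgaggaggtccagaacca
Peg3 at chr7:6730370-6730669: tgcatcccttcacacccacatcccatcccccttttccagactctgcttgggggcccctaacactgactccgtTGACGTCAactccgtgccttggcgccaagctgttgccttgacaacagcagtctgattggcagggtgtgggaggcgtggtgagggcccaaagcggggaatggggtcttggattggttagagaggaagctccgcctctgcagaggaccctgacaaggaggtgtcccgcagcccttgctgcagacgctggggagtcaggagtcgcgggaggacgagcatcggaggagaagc
The Prkcd window held 1 match each to CTTTGA (as TCAAAG on the printed strand), TATAAA and CACGTG, and the Tnnt1 window 1 TATAAA. The second listed start of Prkcd had none of the 4 motifs, and of the 2 starts of Tcf7l2 the second held a TATAAA. Over the 32851 windows of the table, 16% held CTTTGA, 13.6% TATAAA, 7.15% CACGTG and 1.79% TGACGTCA. Of the 18 windows of the thalamus list, 3 held CTTTGA, 4 TATAAA, 2 CACGTG and 0 TGACGTCA. Of the 12 windows of the hypothalamus list, 3 held CTTTGA, 1 TATAAA, 0 CACGTG and 4 TGACGTCA (Sst, Peg3, Cartpt and Th). A match says only that these letters lie in the window.

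Prkcd had values of 1.22, 1.83 and 3.07 (lowest, median and highest) on the 8 central arrays, against -1.42, -0.40 and 0.32 on the 17 ventral arrays. All central arrays lay above all ventral arrays, and the difference was 3.20, 2.00 and 2.12 in datasets 1 to 3. Tcf7l2 had 1.12, 2.32 and 3.38 on the central arrays, against -1.20, 0.36 and 2.03 on the ventral arrays. The zones overlapped for Tcf7l2: within datasets 1 and 3 all central arrays lay above all ventral ones, but in dataset 2 the C5 array (1.12) lay below the B6 array (1.32). The lowest ventral value of Tcf7l2 was the B6 array of dataset 1, while the highest was the B6 array of dataset 3, and without the first array its difference was 1.75. The 2 marker genes of the central midline were both higher there, though neither passed the test. They were chosen with earlier results of these data known, so this is a description.

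Tnnt1, which encodes the slow-muscle form of troponin T and is also read in thalamic neurons, had 0.91, 1.37 and 2.10 on the central arrays, against -0.62, 0.04 and 0.88 on the ventral arrays. Its zones did not overlap, and its differences of 1.31, 1.39 and 1.28 lay close together. Ptpn3, a protein tyrosine phosphatase gene, had 0.01, 0.81 and 0.97 on the central arrays, against -1.64, -0.83 and 0.68 on the ventral arrays. Within each dataset the central arrays lay above the ventral ones, and only the C5 array of dataset 2 kept the 2 zones from separating over all datasets. Adgra1, an adhesion G protein-coupled receptor gene, had 0.48, 1.03 and 1.84 on the central arrays, against -0.71, -0.01 and 0.78 on the ventral arrays. It also separated within each dataset, with differences of 1.18, 0.93 and 1.07. Over all genes tested, 3 (0.0194%) had every central array above every ventral array and 0 (0%) had every central array below, and 13 (0.0841%) and 2 (0.0129%) separated within each of the 3 datasets. The 2 that separated downwards were Ap1s2 and an unnamed clone.

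**Figure D1:**
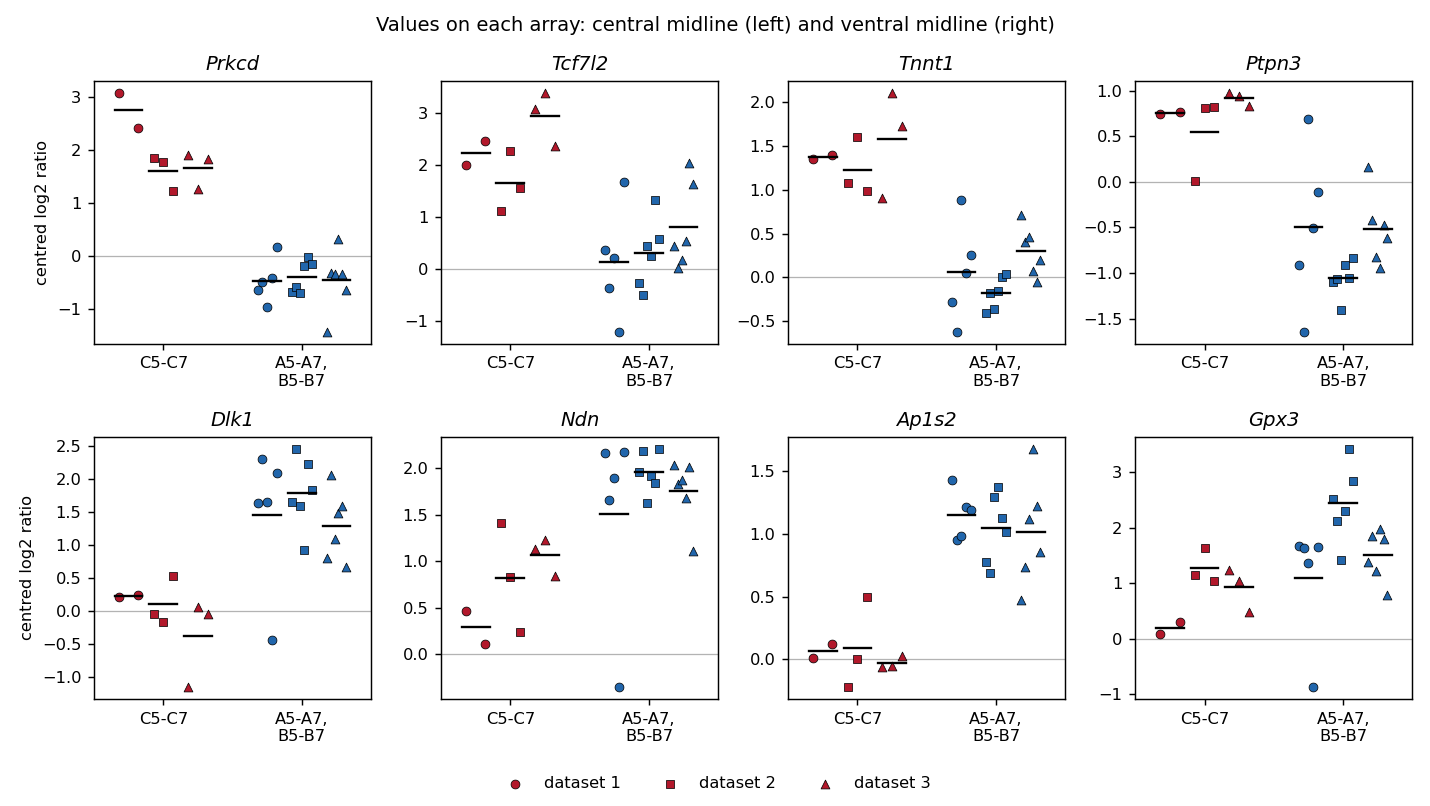
Centred log2 ratio (y axis) of 8 genes on each array, with the central midline on the left and the ventral midline on the right of each panel; circles, squares and triangles are datasets 1, 2 and 3, and lines are dataset means; red is central and blue ventral. Prkcd has all central points (1.22 to 3.07) above all ventral points (-1.42 to 0.32), and the low ventral circle of Dlk1 (-0.44), Ndn (-0.36) and Gpx3 (-0.87) is the B6 array of dataset 1.

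Of the other genes named on the central side, Slfnl1 stood at 1.15 ± 0.12, Zfp804a, a zinc finger gene, at 1.10 ± 0.28, Plaat1, a phospholipase and acyltransferase gene, at 1.04 ± 0.07, and Bfsp2, a lens intermediate filament gene, at 1.01 ± 0.12. AU067806 (0.98 ± 0.25), Pgm3 (0.92 ± 0.23), which makes a precursor of protein glycosylation, and Zyx (0.82 ± 0.07), which encodes the focal adhesion protein zyxin, completed the 12. For some of these the level also differed between datasets. The central values of Slfnl1 lay between -0.30 and 0.34 in datasets 1 and 2 and between 0.97 and 2.33 in dataset 3, and its ventral values between -1.64 and -0.20 in datasets 1 and 2 and between 0.27 and 1.14 in dataset 3. Pgm3 reached 4.31 at C5 of dataset 3, where the next central array was at 1.56, and without that array its difference was 0.49. Without C6, Zfp804a stood at 0.72 and Zyx at 0.51. AU067806 stood at 0.65 with the median over positions, and Plaat1 at 2.07 with floor values kept.

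Dlk1, a membrane ligand related to Notch ligands, had -1.16, 0.01 and 0.54 on the central arrays, against -0.44, 1.64 and 2.46 on the ventral arrays. In datasets 2 and 3 all central arrays lay below all ventral ones, and in dataset 1 only the B6 array lay below the central ones. Without that array the difference of Dlk1 was -1.67. Ap1s2, a subunit of the clathrin adaptor AP-1, had -0.22, 0.01 and 0.50 on the central arrays, against 0.47, 1.12 and 1.68 on the ventral arrays. Its zones separated within each of the 3 datasets, with differences of -1.09, -0.95 and -1.04. Ndn, which encodes necdin, a growth-restraining protein of neurons, had 0.11, 0.83 and 1.41 on the central arrays, against -0.36, 1.89 and 2.21 on the ventral arrays. All central values of Ndn were above 0, so the central midline lay between the ventral midline and the middle of the section.

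Gpx3, a secreted glutathione peroxidase gene, had 0.09, 1.05 and 1.64 on the central arrays, against -0.87, 1.67 and 3.43 on the ventral arrays, and its zones overlapped. AW551984 stood at -1.31 ± 0.57, with central values of 0.39 to 1.57 and ventral values of 0.50 to 3.98. Without the B6 array of dataset 1, which held the lowest ventral value of Ndn (-0.36), Gpx3 (-0.87) and AW551984 (0.50), the differences were -1.17, -1.04 and -1.48. Fxyd6, a regulator of the sodium pump, stood at -1.22 ± 0.66, and Pgrmc1, a haem-binding membrane protein gene, at -0.89 ± 0.16. Heyl, a transcriptional repressor acting below Notch, stood at -1.58 ± 0.83, but its central values were near 0 in datasets 1 and 2 and between -2.69 and -1.74 in dataset 3. Rgs10 (-0.72 ± 0.14), which shortens G protein signals, Casz1 (-0.87 ± 0.29), Wdr19 (-1.03 ± 0.52), a gene of transport in cilia, and Alg2 (-0.66 ± 0.23), of protein glycosylation, were the other genes named on the ventral side. Wdr19 was at -4.38 on the C5 array of dataset 3, and its difference was -0.48 without that array and -0.28 without C5 in all datasets. Casz1 stood at -0.57 without C5. The adjusted p was 0.761 for each of these 24 genes.

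**Figure D2:**
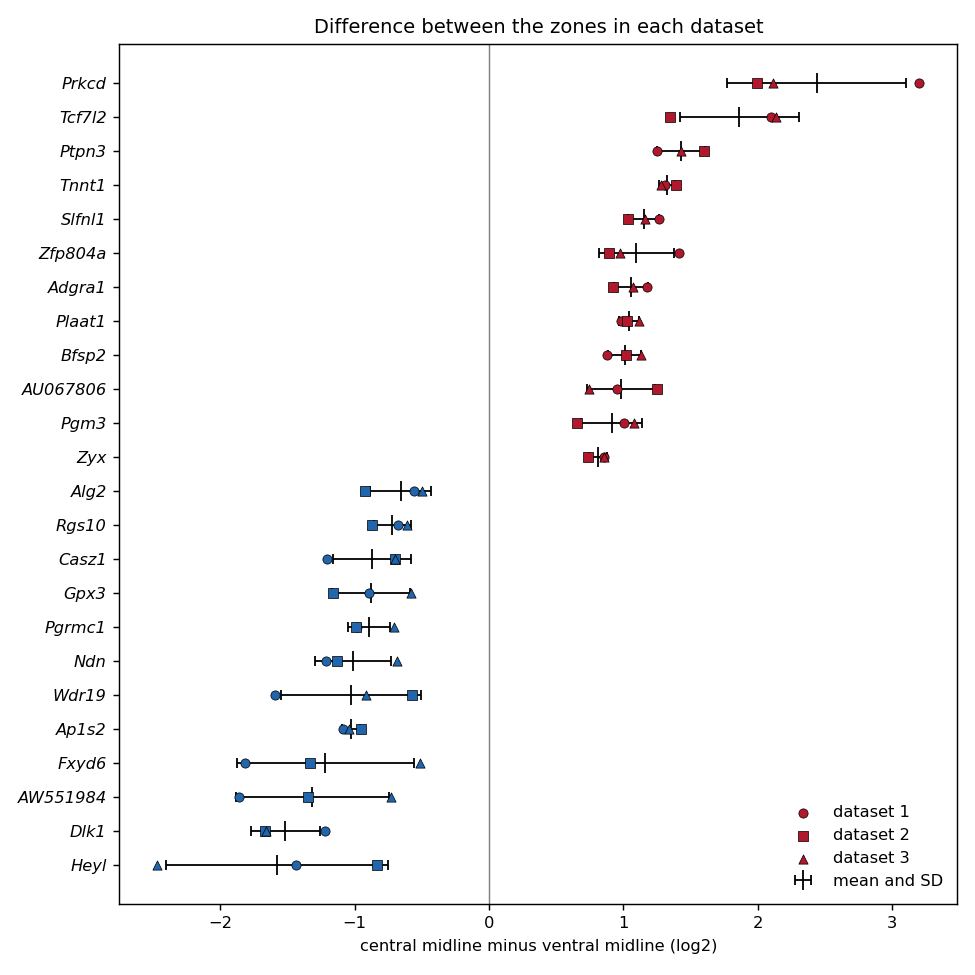
Central midline minus ventral midline (x axis, log2) for the 24 named genes, ordered by the mean; circles, squares and triangles are datasets 1 to 3, and the bar gives the mean and SD of the 3 datasets. Tnnt1 (1.28 to 1.39) and Ap1s2 (-1.09 to -0.95) vary little between datasets, while Heyl (-2.47 to -0.83) and Fxyd6 (-1.81 to -0.51) vary widely.

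Of the thalamus list of 26 genes, 11 were tested. All 11 differences were above 0 (55.5% of all genes tested were), and 6 had an unadjusted p under 0.05 (on this side 4.68% of all did). The median was 0.623, where the median of all genes tested was 0.031. The list and its members were chosen with results of these data known, so the count is a description. After Prkcd, Tcf7l2 and Tnnt1 came Rora, a nuclear receptor gene, with 0.13, 0.53 and 1.20 on the central arrays, against -0.94, -0.30 and 0.42 on the ventral arrays. Its difference was 0.84 ± 0.28. Plekhg1 stood at 0.62 ± 0.38, Lef1, another nuclear effector of Wnt signalling, at 0.61 ± 0.51, Cplx1, a complexin that clamps vesicle fusion, at 0.51 ± 0.41, and the RNA editing enzyme gene Adarb1 at 0.29 ± 0.22. Cplx1 lay below the rest of the section in both zones, by -0.22 in the central and -0.73 in the ventral midline. Amotl1 (0.64 ± 0.95), Patj (0.28 ± 0.34) and Zfhx3 (0.10 ± 0.36) did not keep 1 sign over the datasets.

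Of the hypothalamus list of 49 genes, 11 were tested. This list too was chosen with results of these data known, so its counts are a description. Of these 9 were below 0 and 5 had an unadjusted p under 0.05 on the ventral side (Dlk1, Ndn, Gpx3, Sst and Peg3), and the median was -0.209. Of all genes tested, 55.5% were above 0 and 1.31% had an unadjusted p under 0.05 on the ventral side. The neuropeptide gene Sst (somatostatin) had -1.30, -0.35 and 0.83 on the central arrays, against -0.84, 0.01 and 1.07 on the ventral arrays, a difference of -0.52 ± 0.14 with overlapping zones. Peg3, an imprinted zinc finger gene, stood at -0.44 ± 0.10. Cartpt, an appetite-reducing peptide gene, stood at -0.21 ± 0.49 and differed in sign in dataset 3 (0.35). Most genes that define the hypothalamus and its nuclei, among them Nkx2-1, Sim1, Otp, Pomc, Agrp, Avp, Oxt, Crh, Hcrt and Pmch, were not analysed here. Of those tested, Nr5a1, of the ventromedial nucleus, stood at -0.15 ± 0.62, the oestrogen receptor gene Esr1 at -0.02 ± 0.03, Th, which makes dopamine's precursor, at -0.07 ± 0.76, and Hmx3 at 0.90 ± 2.20 with 3.40 in dataset 3 alone. Each of the 4 differed in sign between datasets. Ddc, which acts after Th, stood at 0.25 ± 0.20. The hypothalamus-like name therefore rests here on genes such as Ndn, Dlk1, Peg3 and Gpx3, not on those that define its nuclei. The zone is called the ventral midline.

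Among lists of related function, the Wnt and TCF pathway had 35 genes tested, with a median of 0.114. Of these 28 were above 0 (all genes tested: 55.5%) and 4 had an unadjusted p under 0.05 on the central side (all: 4.68%). The 4 were Tcf7l2, Lef1, the kinase subunit gene Csnk2a1 (0.58 ± 0.36) and Nkd1, an inhibitor of the pathway (0.41 ± 0.25). Of protein kinase C and phospholipase genes 16 were tested, 9 above 0, with a median of 0.0678. Beside Prkcd, Itpkb, which phosphorylates inositol trisphosphate, stood at 0.62 ± 0.35 and Marcksl1, which encodes a protein kinase C substrate, at -0.39 ± 0.14. Of 10 ion channel genes tied to thalamic firing, 6 were above 0, with a median of 0.107. Kcnd2, an A-type potassium channel gene, stood at 1.13 ± 0.62, but C6 of dataset 1 (2.99) was far above the other central arrays (-0.09 to 0.68), and without dataset 1 the difference was 0.81. The T-type calcium channel gene Cacna1h stood at 0.38 ± 0.18.

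Of 17 calmodulin and calcium genes, 16 were above 0 (all genes tested: 55.5%), with a median of 0.193. In 3 of 3 datasets 9 were above 0 (all: 19%). The mean over the list was 0.196 and 0.307 in datasets 1 and 2 and 0.0102 in dataset 3. Atp2a2, a calcium pump gene of the endoplasmic reticulum, stood at 0.51 ± 0.21 and Caln1 at -0.43 ± 0.27. Imprinted genes and their X-linked relatives ran the other way: 20 of 29 were below 0, with a median of -0.119, where 55.5% of all genes tested were above 0. At an unadjusted p under 0.05 there were 5 on the ventral side (all genes tested: 1.31%) and 2 on the central side (all: 4.68%). The 2 on the central side were Gatm, of creatine synthesis (0.61 ± 0.16), and the growth factor gene Igf2 (0.48 ± 0.10). Of 9 neuropeptide and secretory genes 6 were below 0, with a median of -0.191, and Pcsk1n, an inhibitor of the prohormone convertase 1, stood at -0.64 ± 0.35.

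Cytosolic ribosomal protein genes lay lower in the central midline in 70 of 74 cases, with a median of -0.234, and 9 had an unadjusted p under 0.05. Of all genes tested, 55.5% were above 0 and 1.31% had an unadjusted p under 0.05 on the ventral side. The mean over the list was -0.395 and -0.322 in datasets 1 and 2 and -0.00912 in dataset 3. Rpl36 stood at -0.56 ± 0.13 and Rps27 at -0.57 ± 0.29. Genes of this family have many near-identical pseudogene copies that a spotted cDNA can also bind. Genes of oxidative phosphorylation were split evenly, 36 of 68 above 0, with a median of 0.0295. Growth cone and cytoskeleton genes had a median of 0.0106 over 14 genes, with Stmn1, which destabilises microtubules, at 0.79 ± 0.18.

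Markers of other cells and tissues moved as follows, and their part in the differences was not tested. Of all genes tested, 55.5% were above 0. Of 10 genes of the meninges 8 were above 0, with a median of 0.369 and list means of 0.14 ± 0.24 in the central and -0.16 ± 0.36 in the ventral midline. The collagen gene Col1a2 had 0.22, 0.51 and 0.99 on the central arrays, against -0.64, -0.16 and 0.31 on the ventral arrays, and separated within each dataset, with a difference of 0.68 ± 0.04. Of 10 oligodendrocyte genes 7 were above 0 (median 0.201), of 9 cortex genes 7 (median 0.21), of 6 hippocampus genes 5 (median 0.338) and of 4 vessel genes 3 (median 0.173). Of 9 astrocyte genes 3 were above 0 (median -0.121) and of 4 microglia genes 0 (median -0.153). Of 9 striatum genes 5 were above 0 (median 0.119), of 9 tanycyte and ependyma genes 5 (median 0.0235) and of 5 choroid plexus genes 3 (median 0.0366). Of 3 blood genes 3 were above 0 (median 0.29), of 4 inhibitory neuron genes 2 (median -0.0442), of 4 monoamine and acetylcholine genes 1 (median -0.126), of 11 immediate early genes 7 (median 0.158) and of 15 heat shock genes 10 (median 0.158). Excitatory neurons were represented by the glutamate receptor gene Gria3 alone, at 0.116. The habenula, which lies on the dorsal thalamus, was represented by Chrnb4 alone (0.05 ± 0.41), and the pituitary by Tbx19 alone (0.13 ± 1.10). Chrnb4, Tbx19 and Gria3 had the same sign in 2 of 3 datasets.

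**Figure D3:**
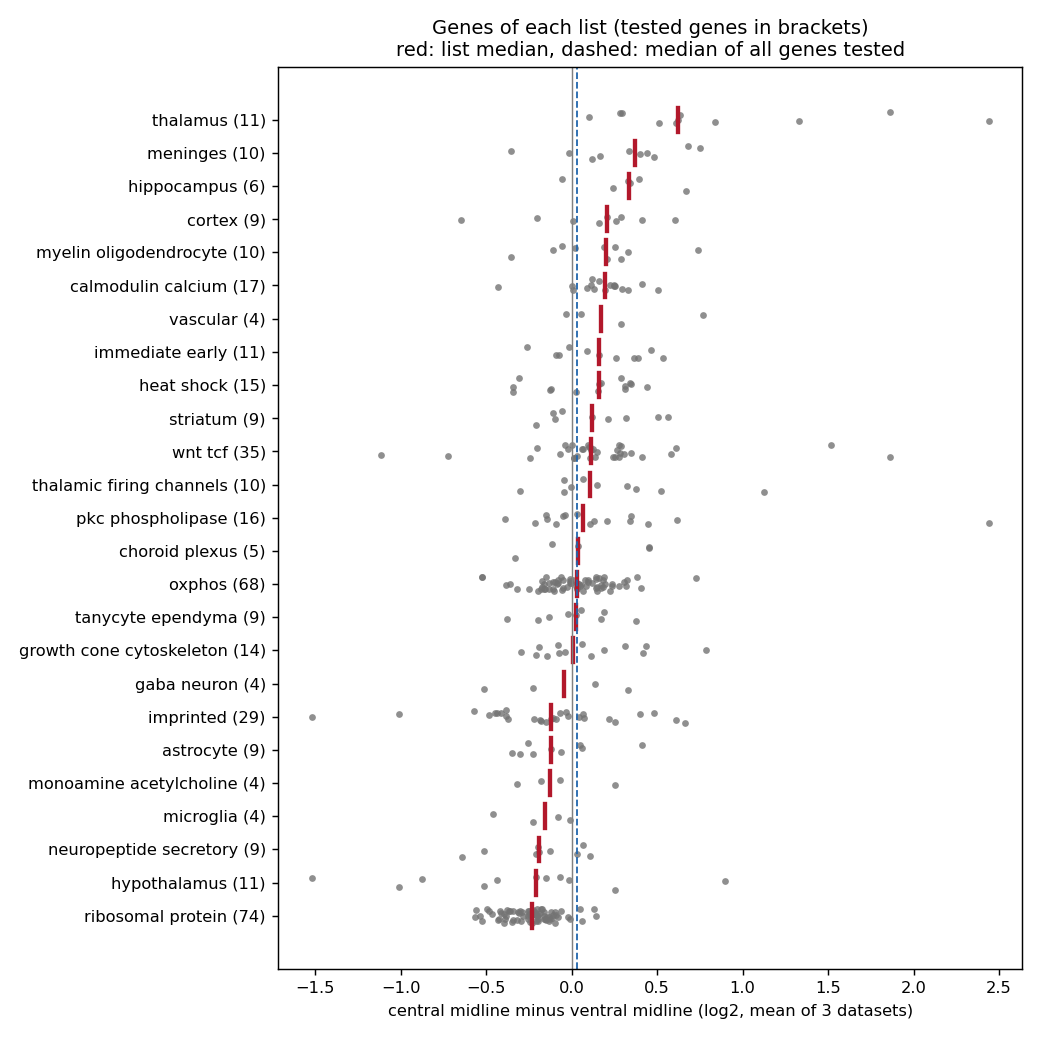
Central midline minus ventral midline (x axis, log2, mean of 3 datasets) of each tested gene, by list (y axis, number tested in brackets); red lines are list medians and the dashed line is the median of all genes tested (0.031). The thalamus list is at the top with a median of 0.623, and the ribosomal protein list at the bottom with -0.234.

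Set against the rest of the section, the ventral midline differed in 53 of 15536 genes (0.341% called), 25 higher (0.161%) and 28 lower (0.18%). AW551984 rose by 2.4 ± 0.30 (adjusted p = 0.00509), Vat1 by 1.86 ± 0.43 (adjusted p = 0.0169), Ndn by 1.80 ± 0.27 (adjusted p = 0.00794) and Gpx3 by 1.76 ± 0.67 (adjusted p = 0.0485). Dlk1 rose by 1.60 ± 0.20 (adjusted p = 0.00794), Peg3 by 0.90 ± 0.09 (adjusted p = 0.0345) and Cartpt by 0.87 ± 0.17 (adjusted p = 0.0451), so 5 of the 11 hypothalamus-list genes were among the 25. The hypothalamus list was chosen with results of these data known, so its count is a description. Of the 29 imprinted-list genes 6 rose, and the 4 besides Ndn and Dlk1 were Impact, Grb10, Maged1 and Peg3, named after their values were seen. Fxyd6, Ap1s2, Pgrmc1 and Alg2 also rose. The immediate early gene Egr1 fell by 2.01 ± 0.67 (adjusted p = 0.0339), Vxn by 1.89 ± 0.36 (adjusted p = 0.0118), the postsynaptic calmodulin-binding gene Nrgn by 1.79 ± 0.49 (adjusted p = 0.0235) and the corepressor gene Rcor3 by 1.73 ± 0.52 (adjusted p = 0.0288). This count hung on the datasets and settings: it was 122, 1 and 3 without dataset 1, 2 or 3, 4 without the dataset as a block, and 3 with floor values kept or with quantile normalization. Without the B6 array of dataset 1 it was 76.

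The central midline against the rest of the section gave 0 of 15529 genes (0% called) in limma, with 879 at an unadjusted p under 0.05. Prkcd stood at 1.77 ± 0.11, Tcf7l2 at 2.28 ± 0.34, Adgra1 at 1.16 ± 0.19 and the metalloproteinase inhibitor gene Timp2 at 1.20 ± 0.03 (adjusted p = 0.36 for Prkcd, Tcf7l2 and Timp2, and 0.727 for Adgra1). Chn1, a regulator of Rac, stood at -1.36 ± 0.31 and the phosphodiesterase gene Pde1a at -0.81 ± 0.10. Without dataset 3, 7 genes passed, with Tcf7l2, Prkcd and Timp2 higher and Egr1, Vxn, the calcineurin subunit gene Ppp3ca and an unnamed clone lower. Some genes thus stood on the same side of the section in both zones. Timp2 was 1.20 ± 0.03 above the rest in the central and 1.18 ± 0.27 above it in the ventral midline, and Ppp3ca stood at -1.38 ± 0.08 and -1.39 ± 0.21, Egr1 at -1.74 ± 0.17 and -2.01 ± 0.67, and Nrgn at -1.38 ± 0.74 and -1.79 ± 0.49. These values share the rest of the section, and the central minus ventral differences of the 4 genes were 0.02 ± 0.26, 0.01 ± 0.15, 0.26 ± 0.50 and 0.41 ± 0.43. Timp2, Ppp3ca and Egr1 kept their sign in only 2 of 3 datasets. Dlk1, by contrast, stood at 0.09 ± 0.13 in the central and 1.60 ± 0.20 in the ventral midline against the rest, and Ap1s2 at 0.10 ± 0.12 and 1.13 ± 0.05.

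Position means, taken relative to each dataset's median of the gene, put Tnnt1, Tcf7l2 and Adgra1 highest of the 68 positions at C6 (1.67, 2.71 and 1.33). For Adgra1 the 3 central positions took ranks 1 to 3. Tnnt1 ranked 4, 1 and 2 at C5, C6 and C7, so a position outside the zone lay above C5. Prkcd ranked 2, 4 and 5 at C5, C6 and C7, behind G9, whose mean of 2.28 had an SD of 3.31 over 3 datasets. Of the other genes named on the central side, Zfp804a and Zyx were highest at C6. The rest were highest outside the zone: Ptpn3 at D7, Slfnl1 at G8, Plaat1 and Bfsp2 at G3, AU067806 at D1 and Pgm3 at A10. Dlk1 was highest at A6 (2.28), Ndn at A5 (2.06), Gpx3 and Ap1s2 at B5 (2.19 and 1.56) and AW551984 at B7 (3.18). Pgrmc1, Rgs10, Heyl, Wdr19 and Alg2 were also highest inside the ventral midline, but Fxyd6 was highest at A9 and Casz1 at A10.

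**Figure D4:**
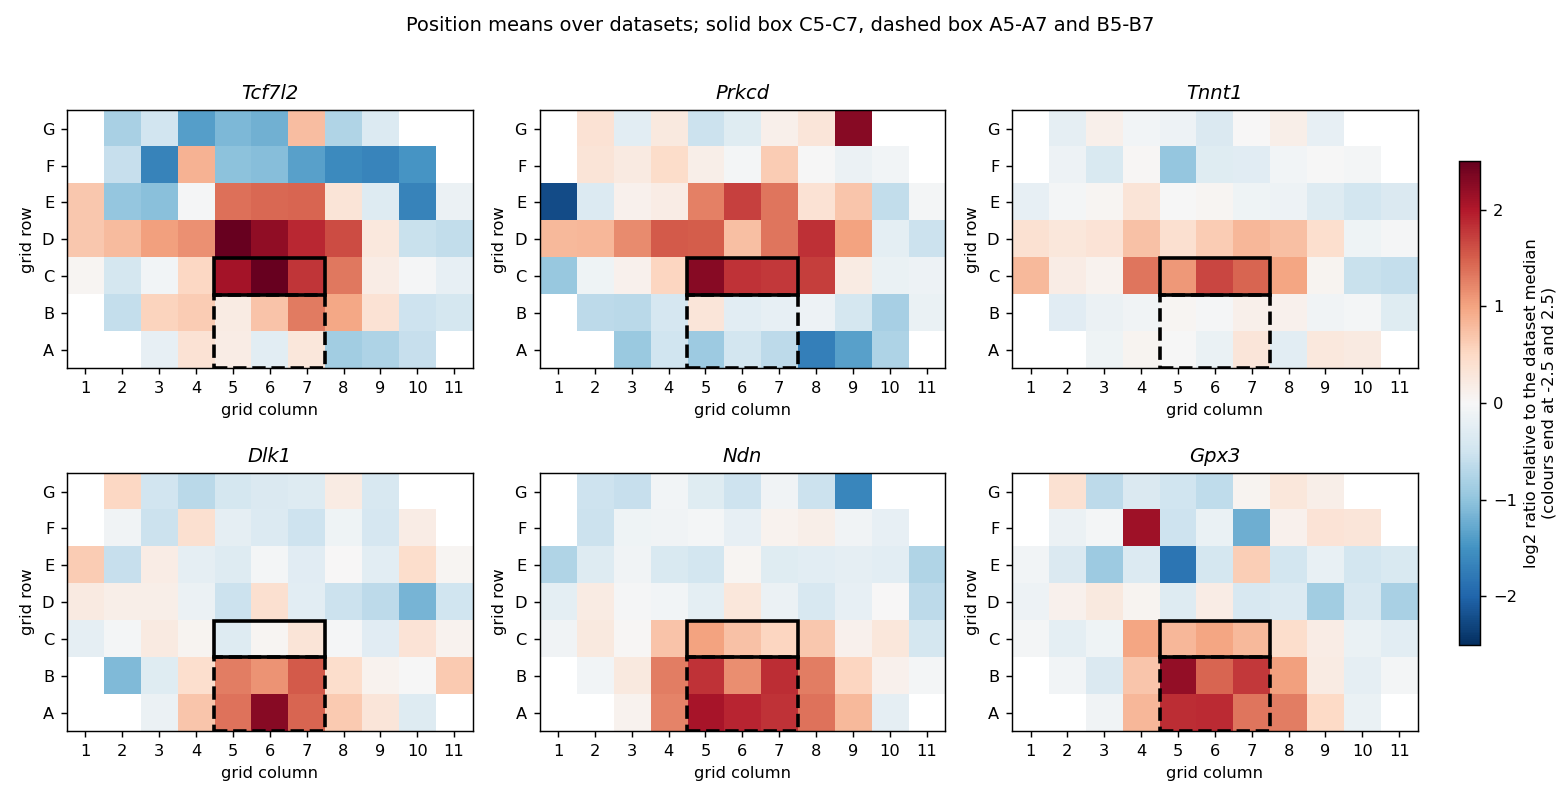
Mean log2 ratio over the datasets at each grid position (columns 1 to 11 on the x axis, rows A to G upwards), relative to the dataset median of the gene, for 6 genes; the solid box is C5 to C7 and the dashed box A5 to A7 and B5 to B7. Tcf7l2, Prkcd and Tnnt1 are high in the solid box (2.71, 1.82 and 1.67 at C6) and Tcf7l2 and Prkcd also in rows D and E above it, and Dlk1, Ndn and Gpx3 are high in the dashed box.

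Along columns 5 to 7, Tcf7l2 averaged 0.06 ± 0.37 in row A, 0.79 ± 0.15 in row B, 2.28 ± 0.44 in row C, 2.21 ± 2.10 in row D and 1.42 ± 1.03 in row E. The spread in row D came from dataset 2 (-0.15), with 3.87 and 2.89 in datasets 1 and 3. Prkcd averaged -0.68 ± 0.44, -0.15 ± 0.39 and 2.00 ± 0.24 in rows A, B and C, and 1.44 ± 0.37 in row E. Tnnt1 was near 0 in rows A (0.04 ± 0.47) and B (0.03 ± 0.14), 1.36 ± 0.27 in row C and again near 0 in row E (-0.02 ± 0.24). Dlk1 averaged 1.70 ± 0.20, 1.25 ± 0.50 and -0.01 ± 0.17 in rows A, B and C, and Ndn 1.92 ± 0.11, 1.51 ± 0.59 and 0.73 ± 0.37. Dlk1 was thus at the level of the section already in row C, while Ndn first came near it in row D (-0.04 ± 0.42). Row B of dataset 1 held only the B6 and B7 arrays. That B6 array had the lowest centred ventral value of Dlk1 (-0.44) and Ndn (-0.36), so their row B means and spread depend on it.

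**Figure D5:**
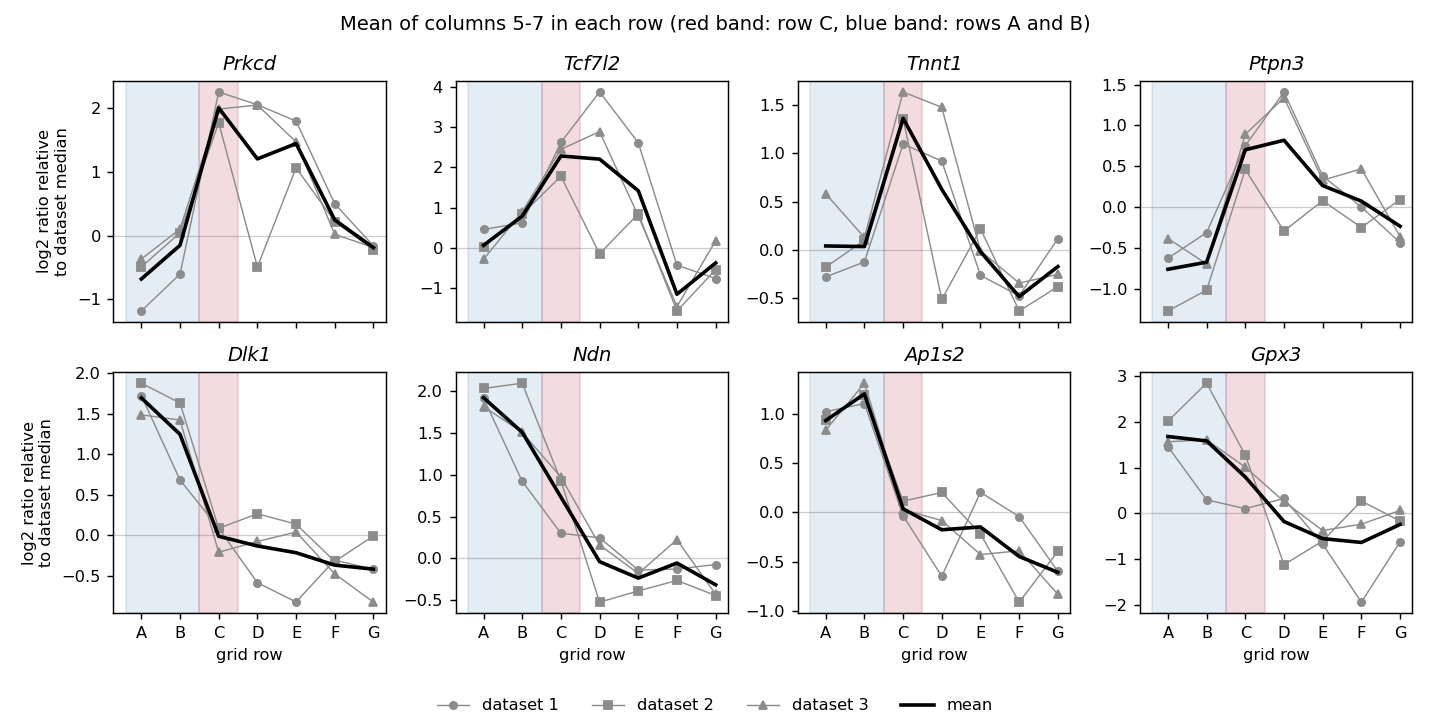
Mean of columns 5 to 7 (y axis, log2 ratio relative to the dataset median) in rows A to G (x axis) for 8 genes; grey lines are the 3 datasets, the black line is their mean, the red band is row C and the blue band rows A and B. Prkcd steps up between rows B (-0.15) and C (2.00), and Dlk1 steps down between rows B (1.25) and C (-0.01).

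Within the ventral midline, row B minus row A gave 0 of 15250 genes (0% called) in limma, with 369 at an unadjusted p under 0.05. Prkcd stood at 0.53 ± 0.05 and Tcf7l2 at 0.72 ± 0.52 between these rows, Dlk1 at -0.45 ± 0.52 and Ndn at -0.41 ± 0.54. In dataset 1 row B was the mean of B6 and B7 alone. Its B6 array held the lowest ventral value of Tcf7l2 (-1.20), Dlk1 (-0.44) and Ndn (-0.36), and row B minus row A was not taken without it. The smallest p were those of Fmr1nb (1.07 ± 0.33), H1f8, Shisal1 and Rufy1 on the row B side and of Usb1 (-1.50 ± 0.26), Prl7a1, Tns2 and Socs3 on the row A side. To see whether the row difference was larger at the midline than beside it, it was also taken in columns 3, 4, 8 and 9. The difference of these differences gave 0 of 15423 genes (0% called) in limma, with 845 at an unadjusted p under 0.05 and a smallest adjusted p of 0.792. In dataset 1 the flanking columns had arrays of rows A and B only at A3, A4, A9 and B8, so mostly in row A. Tcf7l2 stood at 1.86 ± 0.44 at the midline and 0.30 ± 0.14 in the flanking columns, and Dlk1 at -1.52 ± 0.26 and -0.29 ± 0.29. For Prkcd the row difference was 2.44 ± 0.67 at the midline and 1.39 ± 0.38 beside it, and for Tnnt1 1.33 ± 0.06 and 0.61 ± 0.58. Some named genes had a row difference of similar size beside the midline. Fxyd6 stood at -1.22 ± 0.66 at the midline and -1.23 ± 0.64 beside it. Pgrmc1 stood at -0.89 ± 0.16 and -0.70 ± 0.21, and Cplx1 at 0.51 ± 0.41 and 0.49 ± 0.24. Rora stood 1.02 ± 0.03 and Stmn1 1.19 ± 0.15 higher in the midline difference than in the flanking one, and Nmrk1, which starts a route to NAD, 1.64 ± 0.50.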

How the data were processed

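Log2 ratios of voxel RNA against whole-brain RNA from 2-colour arrays were analysed. The authors deposited 1 table of log2 ratios, 20847 rows by 192 arrays; how spots were scanned, background-corrected and normalized the labels do not say. In 99.9% of rows the median over arrays lay within 0.001 of 0, so rows had been centred. Trizol was used for extraction, per the labels' protocols. In the annotation of the array platform 13164 rows had 1 gene symbol, 317 several and 7300 none, and 12982 matched RefSeq.

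The floor of -6.64 (19323 values, 0.483%) was treated as missing, as were 1.93% of values already missing. Arrays were set to a median of 0 over the rows with no missing value (largest shift 0.353). A row had to have values on 80% or more of each dataset's arrays. Without the 19 control rows, and with rows of the same symbol averaged, this gave 15609 genes, of which 7162 had no symbol. A zone needed values at 50% or more of its positions in each dataset.

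Differences of zone means within each dataset were tested with limma 3.58.1 in R 4.3.3 (lmFit and eBayes, two-sided against 0), with Benjamini-Hochberg adjustment over all genes and a threshold of 0.05; the code was tested on simulated data. The dataset numbers name independent harvests per the series design and the labels, so they pair the arrays; deviations of same-numbered arrays correlated at 0.269, 0.439 and 0.423. Arrays give no read depth, so their number limits precision. The 12 genes named in each direction had the same sign in 3 of 3 datasets and the smallest p, since none passed; for other comparisons the 4 largest that passed, or the 4 of smallest p, were named, with all tested genes of the thalamus and hypothalamus lists and up to 4 of each other list. The members and lists were chosen with earlier results of these data known. Alternatives for blocking, floor, centring, filters, zones and left-out datasets or arrays are described in the closing section.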

Additional observations from a re-analysis of the deposited data

Results flagged for a closer look

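Among the 74 genes whose central minus ventral values were checked, 19 had a central array far from the other 7 by Dixon's test. Chance flags about 1 of 20 groups of values of equal spread, but the spread of the central arrays ran from 0.244 to 0.73. How many of all genes would be flagged was not taken, so the count is a description. Of these flags 11 were at C5 of dataset 3, the central array of widest spread: Pgm3 (4.31), Nkx6-2 (3.80), Fezf2 (2.84), Itpkb (2.38), Fosl2 (1.66), Igf2 (1.51) and Marcksl1 (1.13) on the high side, and Wdr19 (-4.38), Dlk1 (-1.16), Zfhx3 (-0.392) and Peg3 (-0.0364) on the low side. At C6 of dataset 3 Zfp804a (3.46), AU067806 (3.08) and Bfsp2 (2.54) were high, and at C7 of dataset 3 Csnk2a1 (-0.686) and Rps27 (-0.449) were low. Kcnd2 was high at C6 of dataset 1 (2.99), Ap1s2 at C7 of dataset 2 (0.499), and Ptpn3 was low at C5 of dataset 2 (0.0136).

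In 7 of the named genes the row difference had 1 sign at the midline in every dataset and the opposite sign in every dataset in the flanking columns. Of these, Stmn1, Wdr19, Caln1 and Cst3 had been named for a small p in this same midline minus flanking difference. The share over all genes was not taken, so the count is a description. The midline minus flanking differences were 1.19 for Stmn1 and 0.798 for Bok, a cell death gene of the BCL2 family, and -1.40 for Wdr19, -1.37 for Caln1, -1.14 for Cst3 (cystatin C), -0.594 for Agt (angiotensinogen) and -0.567 for the matrix gene Sparc. The limma test of this difference gave an adjusted p of 0.792 for each of them.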

How the results depend on the processing

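The central minus ventral comparison passed 0 genes in limma under 21 of its 22 alternatives, and 45 under the fit of single arrays with the replicate block; at an unadjusted p under 0.05 the alternatives gave 315 (no replicate block) to 1650 genes (single arrays), against 925. Leaving out each dataset passed 0 to 7 genes for the central midline against the rest (7 without dataset 3) and 0 to 1 for row B minus row A. For the ventral midline against the rest, with 53 genes, it passed 1 to 122 genes, and 4 without the replicate block, 3 with floor values kept, 3 with quantile normalization and 87 without row D in the rest; the cause was not tested. The 53 were all among the 122 and the 87. The midline against flanking comparison passed 0 genes throughout. Over the 74 named genes, 1584 of 1613 values kept their direction and side of the threshold, 16 passed in the fit of single arrays and 13 reversed, and 67 genes never reversed. These counts were largely set by the naming and do not measure stability. The genes named by rule had 1 sign in all datasets, and many others were named for a small p in this comparison. None passed in the main fit. Th turned to 0.21 with quantile normalization, 0.010 against row A and 0.063 without C5. Esr1 turned to 0.017 with no filter, 0.036 against row A and 0.040 without C6. Nr5a1 turned to 0.23 against row B, Cartpt to 0.12 against row A and Nucb2 to 0.44 without C6. Leaving out each dataset gave -0.0067 to 0.31 for Zfhx3, -0.35 to 1.72 for Hmx3, -0.46 to 0.17 for Nr5a1 and -0.32 to 0.37 for Th. Prkcd stayed between 2.06 and 2.82, Tcf7l2 between 1.5 and 2.22, and Dlk1 between -1.71 and -1.26 under all 22. The alternatives without C5 of dataset 3, without B6 of dataset 1 and without row D were chosen after seeing the data. With 3 datasets, and arrays that give no depth, small differences cannot be detected. Large ones did not pass either: Prkcd, the largest at 5.42-fold, had an adjusted p of 0.761 in limma. A gene that did not pass therefore cannot be called equal in the 2 zones.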
